A study of Rattus norvegicus with 39 samples.

Results

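The miR-200 family consists of 5 mature miRNAs from 2 gene clusters, and its level was followed in rat sperm after exposure of the males to ethylene glycol monomethyl ether (EGME). The members were taken by name from the deposited table of mature miRNA counts: rno-miR-200b-3p, rno-miR-200a-3p and rno-miR-429 of one cluster, and rno-miR-200c-3p and rno-miR-141-3p of the other. All 5 were among the 405 miRNAs of the table, and 4 of the 5 passed the filter on low counts that kept 105 miRNAs. miR-141-3p did not pass.

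EGME is a glycol ether solvent whose metabolite methoxyacetic acid damages developing sperm cells in the testis. Adult wild-type male Fischer rats, 11 to 12 weeks old, received the compound or water once a day by gavage for 5 days and were then left unexposed for 5 weeks. Each of the 39 small RNA libraries held the cauda epididymal sperm RNA of 1 male. The groups received 0 mg/kg/d (water, called EGME0), 50 mg/kg/d (EGME50), 60 mg/kg/d (EGME60) or 75 mg/kg/d (EGME75), with n = 10, 10, 9 and 10.

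The miR-200 family is best known from epithelia, the sheets of joined cells that line ducts and cover surfaces. Its members repress the transcription factors ZEB1 and ZEB2, which switch off E-cadherin and other genes of cell contact, so the family helps to keep cells epithelial. The epididymis, the duct in which sperm mature and are stored, is lined by such an epithelium, and sperm take up part of their small RNA cargo during passage through it. A miRNA recognises its targets mainly through its seed, bases 2 to 8 from the 5′ end.

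The sequences are shown because the family holds 2 seeds that cut across the 2 clusters, so cluster and seed can be compared separately. Capitals mark the seed in the mature miRNA and the same 7 bases in the hairpin, the folded precursor from which the mature miRNA is excised. All are written 5′ to 3′ and come from RefSeq (GRCr8), which places Mir200b, Mir200a and Mir429 on the minus strand of chromosome 5 and Mir200c and Mir141 on the minus strand of chromosome 4.
rno-miR-200c-3p: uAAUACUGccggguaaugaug
rno-miR-141-3p: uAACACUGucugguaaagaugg
Mir200b hairpin: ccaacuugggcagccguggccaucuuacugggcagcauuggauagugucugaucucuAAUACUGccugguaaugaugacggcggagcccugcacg
Mir200a hairpin: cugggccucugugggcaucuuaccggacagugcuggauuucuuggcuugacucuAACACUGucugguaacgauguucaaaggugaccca
Mir429 hairpin: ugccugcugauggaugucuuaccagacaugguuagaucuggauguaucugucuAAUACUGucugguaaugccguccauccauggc
Mir200c hairpin: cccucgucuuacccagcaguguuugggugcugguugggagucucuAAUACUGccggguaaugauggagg
Mir141 hairpin: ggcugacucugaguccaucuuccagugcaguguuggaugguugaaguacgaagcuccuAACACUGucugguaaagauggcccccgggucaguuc

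The hairpins of miR-200b, miR-429 and miR-200c share the 7 bases AAUACUG, and those of miR-200a and miR-141 share AACACUG. The 2 seeds differ by U4C, counted from the 5′ end of the miRNA. Each cluster therefore holds both seeds. Over the 21 bases of miR-200c-3p, the miR-200b hairpin carries 1 difference, G11U. Over the 22 bases of miR-141-3p, the miR-200a hairpin carries 2 differences, A17C and G22U. How mismatches and reads with several matches were treated is not given in the sources used here, so the split of reads between miR-200b-3p and miR-200c-3p, and between miR-200a-3p and miR-141-3p, is uncertain.

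The miRNA table was shallow and its depth differed between the groups. Its totals ran from 139 to 38208 counts per library, with medians of 15324.5, 14785.5, 9270 and 3201.5 in EGME0, EGME50, EGME60 and EGME75. The 3 libraries under 1000 counts were all of EGME75 (replicates 7, 23 and 24). As a share of the counts in the 4 deposited tables, miRNAs took 0.178% ± 0.0731% (SD, n = 10) in EGME0 and 0.0554% ± 0.0522% (SD, n = 10) in EGME75. Values of 1 were almost missing from the miRNA table (17, against 1088 values of 2), so a member listed at 0 may have had a single read. Germ cell miRNAs were abundant in every EGME0 library. There 6 miRNAs of the miR-34 and miR-449 families summed to between 234489 and 460895 scaled counts per 1000000 (CPM). This level and those below are scaled by the trimmed mean of M-values (TMM), which multiplies the miRNA total of each library by a factor. A scaled CPM is therefore not a plain share of the miRNA counts. Levels of different members are set side by side as reads counted, since capture of a miRNA in a library also depends on its sequence. As the samples are bulk RNA, fewer cells of a type and less RNA per cell cannot be told apart.

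The 3 miRNAs of the miR-200b/miR-200a/miR-429 cluster were higher in sperm of exposed males, and miR-200c-3p of the other cluster did not pass the test at any dose. At EGME75 the log2 fold changes against control were 3.51 for miR-200a-3p, 2.52 for miR-429, 2.14 for miR-200b-3p and 0.19 for miR-200c-3p. The 3 doses were set against the same 10 controls. At EGME60, miR-200b-3p, miR-200a-3p and miR-429 also rose, and at EGME50 miR-200b-3p and miR-200a-3p did. Counts of called members are set against the background of all 105 tested miRNAs: edgeR called 2 members higher at EGME50, where 2.86% of all tested miRNAs were called, all of them higher. It called 3 members higher at EGME60, where 31.4% of all tested miRNAs were called in either direction and 20% higher, and 3 at EGME75, where 42.9% were called in either direction and 21.9% higher. On a slope over dose, 3 members were called higher, against 45.7% of all tested miRNAs in either direction and 24.8% higher. The median log2 fold change of the 4 tested members was 1.12, 1.69 and 2.33 at the 3 doses, and that of all tested miRNAs -0.01, 0.11 and -0.10.

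**Figure D1:**
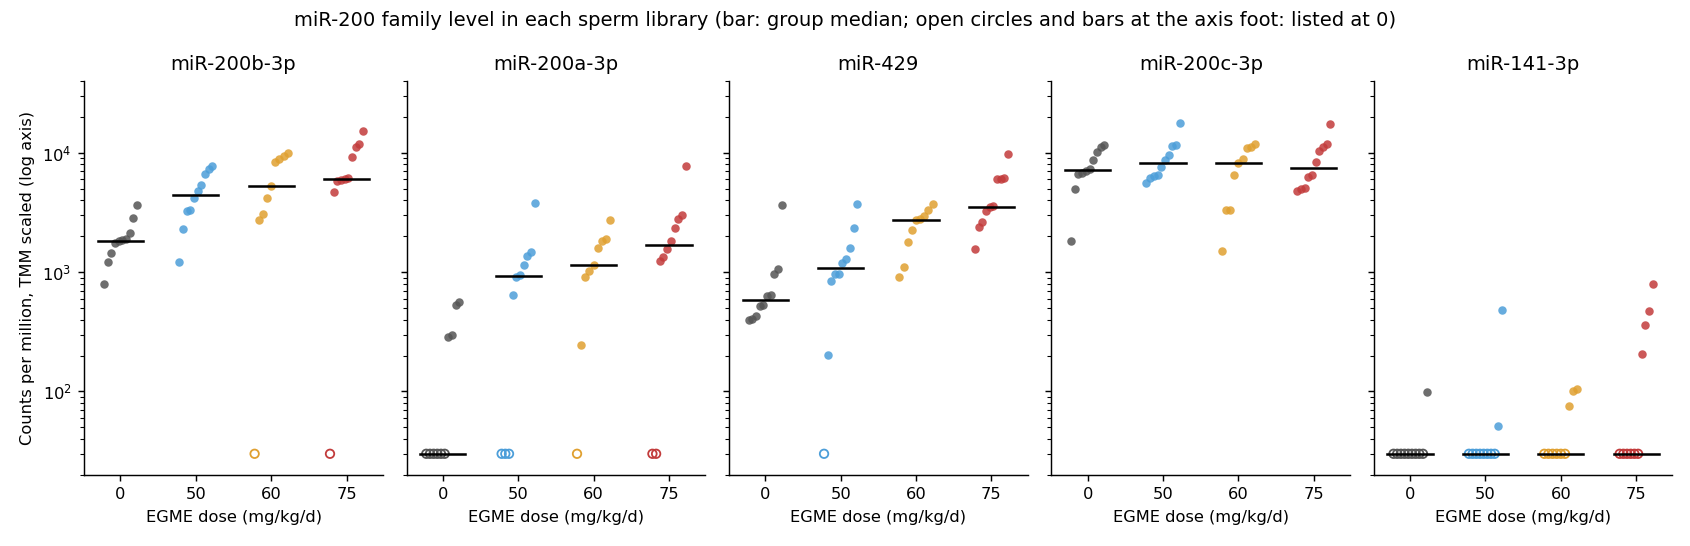
Level of each member in each library, in TMM-scaled CPM on a log axis, by EGME dose in mg/kg/d; each point is 1 male and each bar a group median. The medians of miR-200b-3p, miR-200a-3p and miR-429 are higher at each higher dose, those of miR-200c-3p lie between 7243 and 8170 CPM (8169.5 at 60 mg/kg/d), and miR-141-3p is listed at 0 in most libraries.

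miR-200b-3p had the most reads of its cluster in every group. Its lowest, median and highest levels were 789, 1840.1 and 3627 CPM in EGME0 and 1220.1, 4467 and 7803 CPM in EGME50. They were 0, 5278 and 9947 CPM in EGME60 and 0, 6087 and 15182 CPM in EGME75. The levels overlapped between groups, but 6 of 10, 6 of 9 and 9 of 10 exposed libraries lay above the highest control. Both zeros fell in shallow libraries, EGME60 replicate 6 with 1990 miRNA counts and EGME75 replicate 24 with 139. By edgeR's quasi-likelihood test with Benjamini-Hochberg adjustment, the log2 fold change was 1.32 ± 0.38 (SE, adjusted p = 0.0336) at EGME50, 1.68 ± 0.39 (adjusted p = 9.55e-04) at EGME60 and 2.14 ± 0.40 (adjusted p = 1.69e-05) at EGME75. Of the 105 tested miRNAs ordered from the highest fold change down, miR-200b-3p stood at place 9 at EGME75.

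miR-200a-3p, which carries the other seed of the cluster, was near the limit of detection in controls. It was listed at 0 in 6 of 10 EGME0 libraries, and its level in the other 4 did not exceed 563 CPM. The lowest, median and highest levels were 0, 934 and 3831 CPM in EGME50, 0, 1144 and 2727 CPM in EGME60 and 0, 1689 and 7690 CPM in EGME75. The zeros of the controls were not confined to shallow libraries, since those 6 libraries held between 1098 and 18847 miRNA counts. In EGME75 the miRNA had counts in 8 of 10 libraries, which held between 807 and 8633 miRNA counts. Summed over the libraries, 33 reads were counted in EGME0 and 236, 184 and 148 in EGME50, EGME60 and EGME75. Its log2 fold changes were 2.37 ± 0.66 (SE, edgeR adjusted p = 0.0318), 2.63 ± 0.68 (adjusted p = 0.00202) and 3.51 ± 0.69 (adjusted p = 3.37e-05) at the 3 doses. At EGME75 it stood at place 2 of the 105 tested miRNAs. With so few control reads, the size of these fold changes rests on 4 control libraries. No control reached the level that the filter on low counts asks for. miR-200a-3p thus entered the 105 through exposed libraries only, and its calls and place carry that limit. With no filter its log2 fold change at EGME75 was 3.48 (edgeR adjusted p = 2.49e-06).

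miR-429, with the seed of miR-200b-3p and miR-200c-3p, passed the test at EGME60 and EGME75 and not at EGME50. Its lowest, median and highest levels were 398, 584 and 3627 CPM in EGME0 and 0, 1079 and 3728 CPM in EGME50. They were 908, 2739 and 3690 CPM (3689.9) in EGME60 and 1564.5, 3545 and 9751 CPM in EGME75. All 9 EGME60 and all 10 EGME75 libraries lay above the control median, but 1 control, EGME0 replicate 33, was as high as most of them, so that 1 EGME60 and 4 EGME75 libraries exceeded the highest control. That control library held 1098 miRNA counts, of which 4 were miR-429. It was the only control to reach the level that the filter on low counts asks for, so miR-429 passed mainly through exposed libraries. The log2 fold change was 0.92 ± 0.46 (SE, edgeR adjusted p = 0.274) at EGME50, 1.70 ± 0.48 (adjusted p = 0.00465) at EGME60 and 2.52 ± 0.49 (adjusted p = 2.70e-05) at EGME75, place 6 of 105.

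The EGME50 calls of miR-200b-3p and miR-200a-3p depended on single libraries and on the settings. Leaving out 1 library at a time changed the number of called members at EGME50 to between 0 and 2 in the 20 fits, and 13 of them gave fewer than 2. The call of miR-200b-3p was lost without EGME0 replicate 1, 2, 9, 10, 17, 18, 25 or 26 and without EGME50 replicate 12, 19, 20, 35 or 36, with log2 fold changes from 1.20 to 1.45 over all 20 fits. That of miR-200a-3p was lost without EGME0 replicate 1, 2, 10, 17, 18 or 26 and without EGME50 replicate 19, 20 or 35, with values from 1.86 to 2.82. With the sequencing chip as a fixed block no member was called at EGME50, although the values stood at 1.33 and 2.54. At EGME60, EGME75 and on the slope, the same count of 3 members was called in every such fit and with the chip block. Depth moved with dose, and the EGME75 values were also taken with it in view. With the log10 of the miRNA total as a covariate, miR-200a-3p, miR-429 and miR-200b-3p stood at 4.56, 2.35 and 2.27, and without the 3 libraries under 1000 counts at 3.77, 2.57 and 2.44, all called by edgeR.

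miR-200c-3p had the most reads of the family in controls and showed no called difference. Its lowest, median and highest levels were 1814, 7243 and 11689.5 CPM in EGME0, 5563, 8155 and 17660.2 CPM in EGME50, 1491, 8170 (8169.5) and 11956 CPM in EGME60, and 4793, 7455 and 17579 CPM in EGME75. The ranges of all 4 groups overlapped, and 6 of 10, 5 of 9 and 5 of 10 exposed libraries lay above the control median. The log2 fold changes were 0.21 ± 0.31 (SE, edgeR adjusted p = 0.750), -0.07 ± 0.32 (adjusted p = 0.881) and 0.19 ± 0.32 (adjusted p = 0.612). At EGME75 it stood at place 47 of 105. A p above the threshold does not show that the level was equal, and the sign of these small values changed with the scaling and the tool.

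miR-141-3p, the partner of miR-200c-3p in its cluster, was scarce at every dose. It had counts in 1 of 10, 2 of 10, 3 of 9 and 4 of 10 libraries of EGME0, EGME50, EGME60 and EGME75, and 2, 16, 9 and 11 reads in all. Its highest level was 99.5 CPM in EGME0 and 799 CPM in EGME75. In EGME0 both reads fell in replicate 1. A fit with no filter on low counts gave a log2 fold change of 3.17 ± 1.14 (SE, edgeR adjusted p = 0.0362) at EGME75. That value rests on those 2 control reads, and the difference from miR-200c-3p was not tested.

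Between neighbouring doses no member differed by edgeR, and 0% of all tested miRNAs were called at either step. The step from EGME50 to EGME60 was 0.36, 0.27, 0.78 and -0.27 on the log2 scale for miR-200b-3p, miR-200a-3p, miR-429 and miR-200c-3p. The step from EGME60 to EGME75 was 0.46, 0.88, 0.82 and 0.26. Over all 105 miRNAs, 14 and 8 had an unadjusted p below 0.05 at the 2 steps. DESeq2 called 3 and 0 miRNAs and limma-voom 0 and 0. Over the whole range, the slope amounted to 2.12 ± 0.38 (SE) for miR-200b-3p, 3.46 ± 0.68 for miR-200a-3p and 2.39 ± 0.46 for miR-429 per 75 mg/kg/d (edgeR adjusted p = 1.2e-05, 4.98e-05 and 4.56e-05). For miR-200c-3p it was 0.13 ± 0.30 (adjusted p = 0.726).

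The size of these values depended on the scaling. With library totals of the miRNA table in place of TMM factors, the median of all tested miRNAs at EGME75 moved to 0.49, and with the sum of the 4 tables as library size it moved to -1.13. On the latter scale 0 members were called at EGME50, 0 at EGME60 and 1 at EGME75, miR-200a-3p at 2.86. There miR-200b-3p stood at 1.12, miR-429 at 1.64 and miR-200c-3p at -0.69, where the TMM value of miR-200c-3p was 0.19. Taken relative to the median of all tested miRNAs, the TMM values at EGME75 were 2.23 for miR-200b-3p, 3.61 for miR-200a-3p, 2.62 for miR-429 and 0.29 for miR-200c-3p. A shift common to all miRNAs cancels in such a difference, so it tells the members from the other miRNAs and says nothing about the choice of scaling. Relative to the counts of all 4 tables, only the difference of miR-200a-3p passed the test there. With library totals, miR-200c-3p was called higher as well, at 0.80.

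**Figure D2:**
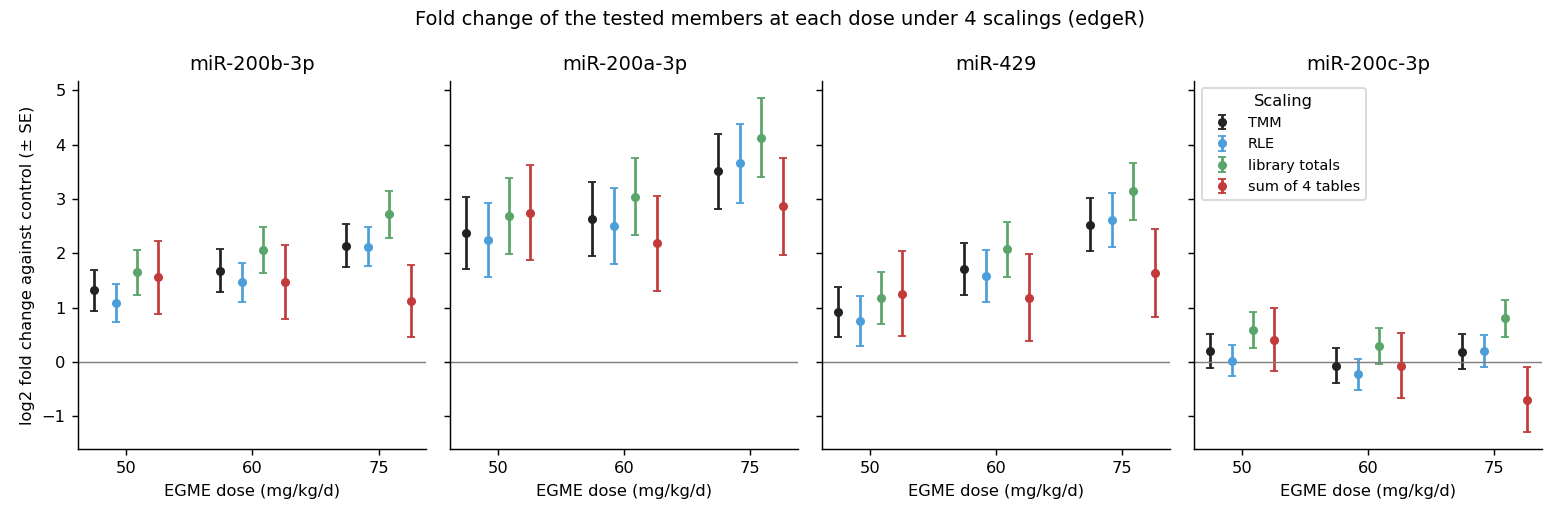
Log2 fold change against control (edgeR, ± SE) of the 4 tested members at 50, 60 and 75 mg/kg/d under 4 scalings. miR-200b-3p, miR-200a-3p and miR-429 lie above 0 under each scaling, while miR-200c-3p at 75 mg/kg/d lies between -0.69 (sum of the 4 tables) and 0.80 (library totals).

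The make-up of the family changed with dose. Of the family's reads summed over each group, miR-200c-3p made up 74.8% in EGME0, 50.8% in EGME50, 44.7% in EGME60 and 35.8% in EGME75. The share of miR-200b-3p went from 16.6% to 29.4%, 35.5% and 34.5%. miR-429 went from 6.12% to 10.4%, 11.8% and 16.4%, and miR-200a-3p from 2.35% to 8.81%, 7.59% and 12.4%. Shares of summed reads lean on single libraries. Of the miR-200a-3p reads, replicate 35 gave 111 of 236 in EGME50 and replicate 39 gave 85 of 148 in EGME75. miR-141-3p stayed under 1 read in 100 at each dose, with 0.918% as its highest share. The miR-200b/miR-200a/miR-429 cluster as a whole supplied 25.1% of the family's reads in EGME0 (352 of 1405) and 48.6%, 54.9% and 63.3% at the rising doses.

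The 2 clusters were then compared inside each library, where the scaling between libraries has no part. The log2 ratio of the summed counts, the miR-200b/miR-200a/miR-429 cluster over the miR-200c/miR-141 cluster with 0.5 added to both, averaged -1.35 ± 1.22 (SD, n = 10) in EGME0, -0.55 ± 0.84 (n = 10) in EGME50, 0.37 ± 0.78 (n = 9) in EGME60 and 0.73 ± 0.62 (n = 10) in EGME75. The first cluster outnumbered the second in 1 of 10, 4 of 10, 8 of 9 and 8 of 10 libraries. Against the control median of -1.42, 8 of 10, 9 of 9 and 10 of 10 exposed libraries lay higher, but none lay above the highest control, EGME0 replicate 33 at 1.77, which rested on 8 reads against 2. The next control was at -1.01. No test was made on these sums, which were put together with results of these data known. In scaled levels, the median of the first cluster was 2493, 5969, 9160 and 13441 CPM (9159.7 and 13440.7) in the 4 groups and that of the second 7243, 8396, 8170 and 7455 CPM (8169.5 in EGME60). The second sum was almost all miR-200c-3p, as miR-141-3p gave 2 of its 1053 reads in EGME0 and 11 of 440 in EGME75. The mean level of miR-141-3p, from these few reads, was 9.95 CPM in EGME0 and 184 CPM in EGME75. The sums therefore compare the first cluster mainly with miR-200c-3p and do not show how miR-141-3p behaved. On the TMM scale the first cluster ran from 7823 to 25783 CPM in EGME75 and from 1507 to 7255 CPM in EGME0. These ranges do not overlap, but how often this holds among all tested miRNAs was not counted. The highest control was again EGME0 replicate 33 with 8 reads, and EGME75 replicate 24 entered with 3 reads.

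**Figure D3:**
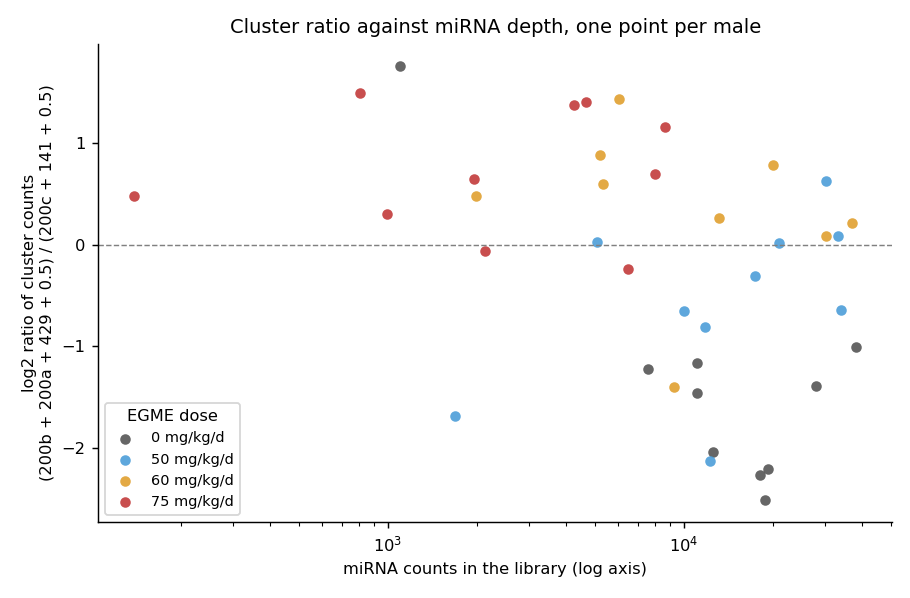
Log2 ratio of the cluster counts (miR-200b/miR-200a/miR-429 over miR-200c/miR-141) in each library against its miRNA counts on a log axis, coloured by dose. The EGME75 libraries hold 139 to 8633 counts and lie between -0.24 and 1.49; 9 of the 10 controls lie at or below -1.01, and the exception is the shallowest control, with 1098 counts.

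Single miRNAs of the 2 clusters were compared as pairs in the same way, with 15 permutation tests adjusted together. The log2 ratio of miR-200a-3p over miR-200c-3p rose by 3.08 at EGME60 (exact two-sided p = 0.00144, adjusted p = 0.0101) and by 3.43 at EGME75 (permutation p = 0.00129, adjusted p = 0.0101). That of miR-200b-3p over miR-200c-3p rose by 1.39 (exact p = 0.0122, adjusted p = 0.0335) and 1.66 (permutation p = 0.00269, adjusted p = 0.0101). That of miR-429 over miR-200c-3p rose by 1.76 (exact p = 0.0156, adjusted p = 0.0335) and 2.25 (permutation p = 0.00248, adjusted p = 0.0101). At EGME75, 9, 9 and 10 of 10 libraries lay above the control median of the 3 ratios. Where miR-200a-3p was listed at 0, the added 0.5 made its ratio depend on depth. EGME75 replicate 24, with 2 counts of miR-200c-3p, stood at -2.32 and is among the 9 for miR-200a-3p. EGME0 replicate 17, with 156 counts of miR-200c-3p, stood at -8.29. The 3 ratios kept their calls at EGME60 and EGME75 without libraries under 1000 counts, and with at least 5 reads in the pair. Beyond such refits, the part of depth in the miR-200a-3p ratio was not tested. In pooled reads, miR-200b-3p stood at 0.222 reads per read of miR-200c-3p in EGME0 and 0.963 in EGME75, miR-429 at 0.0818 and 0.459, and miR-200a-3p at 0.0314 and 0.345. EGME75 replicate 39 alone gave 85 of the 148 miR-200a-3p reads behind the last value. At these doses members with the same seed as miR-200c-3p and the member with the other seed thus all gained on it.

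At EGME50 none of the 3 ratios passed: the differences were 1.69, 0.87 and 0.14 (permutation, adjusted p = 0.111, 0.0794 and 0.846). With libraries under 5000 miRNA counts left out, a choice made after seeing the data, the differences were 2.34, 1.25 and 0.96 and all 3 passed. With counts pooled over each group they were 2.45, 1.38 and 1.31 and again passed. Without EGME0 replicate 33 or EGME50 replicate 3 alone, the ratio of miR-200b-3p passed, with values between 0.74 and 1.18 over the 20 fits.

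Some of the EGME60 pair results were close to the threshold. Leaving out EGME0 replicate 2, 17 or 18 or EGME60 replicate 5, 22 or 38 cost the ratio of miR-200b-3p over miR-200c-3p its call, at differences from 1.27 to 1.34. For miR-429 over miR-200c-3p this held for EGME0 replicate 1, 2, 10, 17, 18 or 34 and EGME60 replicate 5, 6, 22 or 38, at 1.51 to 1.73. The miR-200a-3p ratio at EGME60 and all 3 ratios at EGME75 kept their side of the threshold when any 1 library was left out. With 0.1 added to each count in place of 0.5, miR-200b-3p over miR-200c-3p stood at 1.17 at EGME60 and 1.46 at EGME75 and passed at neither dose. With labels permuted within chips, all 6 of these differences passed, at 3.90, 1.67 and 2.37 for miR-200a-3p, miR-200b-3p and miR-429 at EGME60 and 3.02, 1.46 and 2.32 at EGME75.

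**Figure D4:**
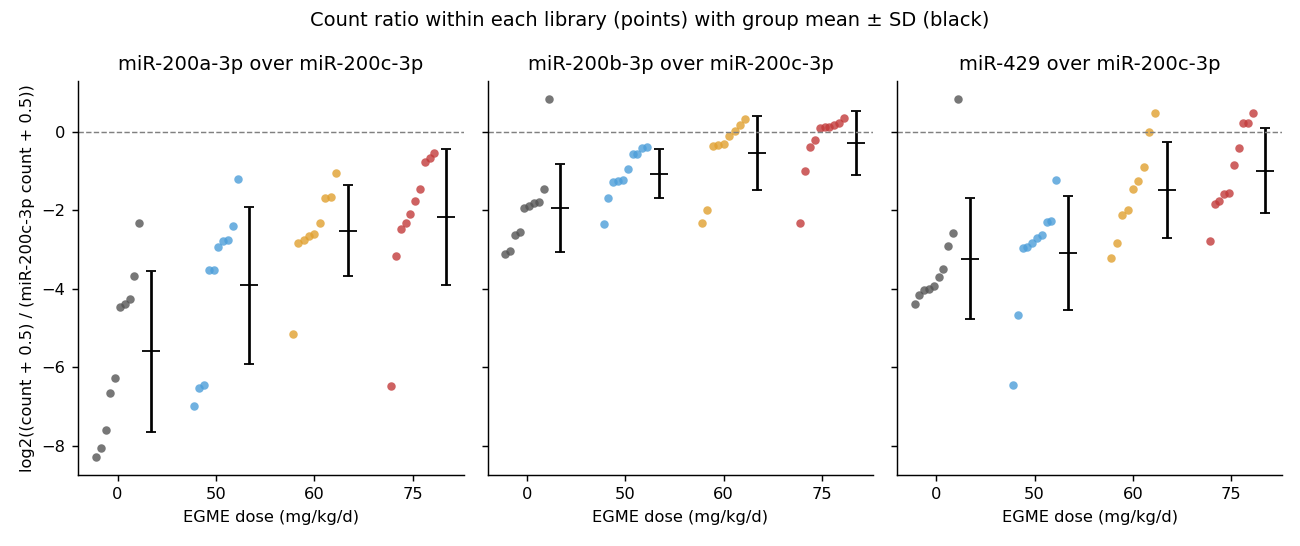
Log2 ratio of the counts of miR-200a-3p, miR-200b-3p and miR-429 to those of miR-200c-3p in each library (points, 0.5 added to each count) by dose, with group mean ± SD in black. The mean of miR-200b-3p over miR-200c-3p goes from -1.93 in EGME0 to -0.27 in EGME75; the single control above 0 in the second and the third panel is EGME0 replicate 33.

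The miRNAs of one cluster are cut from a common primary transcript, so the ratios within it were compared too. The log2 ratio of miR-200a-3p over miR-200b-3p rose by 1.69 at EGME60 (exact p = 0.0136, adjusted p = 0.0335). It differed from control by 0.82 at EGME50 and 1.77 at EGME75 (permutation, adjusted p = 0.300 and 0.0574), neither past the threshold. In EGME60 replicate 6 both miRNAs were listed at 0, so the added 0.5 alone set its log2 ratio at 0, the highest of its group. The same held for EGME75 replicate 24. The EGME60 call was lost without EGME0 replicate 2, 10, 17, 18 or 26 or EGME60 replicate 5, 6, 22 or 38, at 1.44 to 1.67. The EGME75 difference passed without EGME0 replicate 9 or 25 or EGME75 replicate 31, at 1.97 to 2.26. In pooled reads the EGME60 difference was 0.58 and did not pass. For miR-429 over miR-200b-3p the differences were -0.73, 0.37 and 0.59 (permutation, exact at EGME60, adjusted p = 0.109, 0.636 and 0.330).

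Of the opposite arms of the same hairpins, 3 of 5 listed were in the table and none was deep enough to test. miR-200b-5p had 49 reads in 14 libraries, 10, 19, 12 and 8 in the 4 groups. miR-200a-5p had 12 reads in 2 libraries, 8 in EGME50 and 4 in EGME60, and miR-141-5p had 12 reads in 6 libraries. The 3p arms were thus the counted arms of this family, and the arms give no separate view of the dose groups at this depth.

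miRNAs known from other cell types also differed between the groups, and their part in the family's values was not tested. Of all tested miRNAs, 21.9% were called higher and 21% lower at EGME75, and 20% higher and 11.4% lower at EGME60, which is the background for the counts of each list. Of 10 other epithelial miRNAs in the table, 3 were tested and 2 were higher at EGME75: miR-205, a miRNA of stratified and basal epithelium, at 2.43 (edgeR adjusted p = 1.22e-04) and miR-203a-3p, known from skin, at 1.28 (adjusted p = 0.0426). miR-375-3p, known from endocrine and secretory cells, stood at -1.10 (adjusted p = 0.150). The median of the 3 was 1.28. The rest of the list was too low to test, and its mean levels in EGME0 and EGME75 went both ways. They were higher in EGME75 for miR-31a-5p (185 and 717 CPM), miR-182 (54.3 and 339 CPM) and miR-96-5p (67.8 and 367 CPM). They were lower for miR-192-5p (140.5 and 20.6 CPM), miR-184 (69.7 and 0 CPM), miR-194-5p (50.6 and 0 CPM) and miR-183-5p (22.5 and 18.1 CPM). The summed level of the 10 ran from 9117 to 68732 CPM in EGME0 and from 0 to 48861 CPM in EGME75. The largest part of this sum was on average miR-375-3p, with means of 24100 CPM in EGME0 and 11144 CPM in EGME75. Of 6 blood cell miRNAs in the table, the 3 tested were all higher: miR-451-5p of red cells at 3.26, miR-150-5p of lymphocytes at 2.33 and miR-223-3p of granulocytes and monocytes at 1.77, with a median of 2.33. The summed level of the 6 ran from 0 to 4582 CPM in EGME0 and from 1994 to 37548 CPM in EGME75, while miR-144-3p, the red cell partner of miR-451, had 2 reads in 1 library. miR-142-5p and miR-142-3p, known from white blood cells, were too low to test: miR-142-5p had 43, 19, 18 and 7 reads in the 4 groups (mean 295, 89.2, 60.6 and 107 CPM), and miR-142-3p had 5, 18, 7 and 5. Of 4 muscle miRNAs in the table, 2 were tested and 1 was higher, miR-145-5p of smooth muscle at 0.94. The other, miR-143-3p, stood at 0.49 (edgeR adjusted p = 0.435) and was not called, and the list median was 0.72. The summed level of the 4 ran from 12035 to 36237 CPM in EGME0 and from 8974 to 80602 CPM in EGME75, and miR-1-3p, a defining miRNA of striated muscle, had 28 reads, all in 1 control library. miR-133a-3p, also of striated muscle and not tested, had 173 reads in EGME0 and 15, 15 and 8 in EGME50, EGME60 and EGME75 (mean 1723, 93.0, 50.4 and 257 CPM). It had counts in 13 of the 39 libraries, and its medians were 0, 89.5, 0 and 0 CPM, so the typical control was listed at 0. At EGME60, 1 epithelial, 3 blood and 1 muscle miRNA were called higher.

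Germ cell miRNAs went the other way in the same libraries. Of 5 tested, 4 were lower at EGME75: miR-34c-3p at -2.41, miR-34b-3p at -1.76, miR-449a-5p at -1.05 and miR-34c-5p at -1.02, with a list median of -1.05. At EGME60, 3 of the 5 were called lower. The summed level of the 6 listed ran from 29252 to 195008 CPM in EGME75, all below the control range. CPM levels, also after TMM scaling, are relative to the other miRNAs of the library. A fall of these abundant miRNAs and a rise of the others therefore cannot be told apart on the CPM scale.

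**Figure D5:**
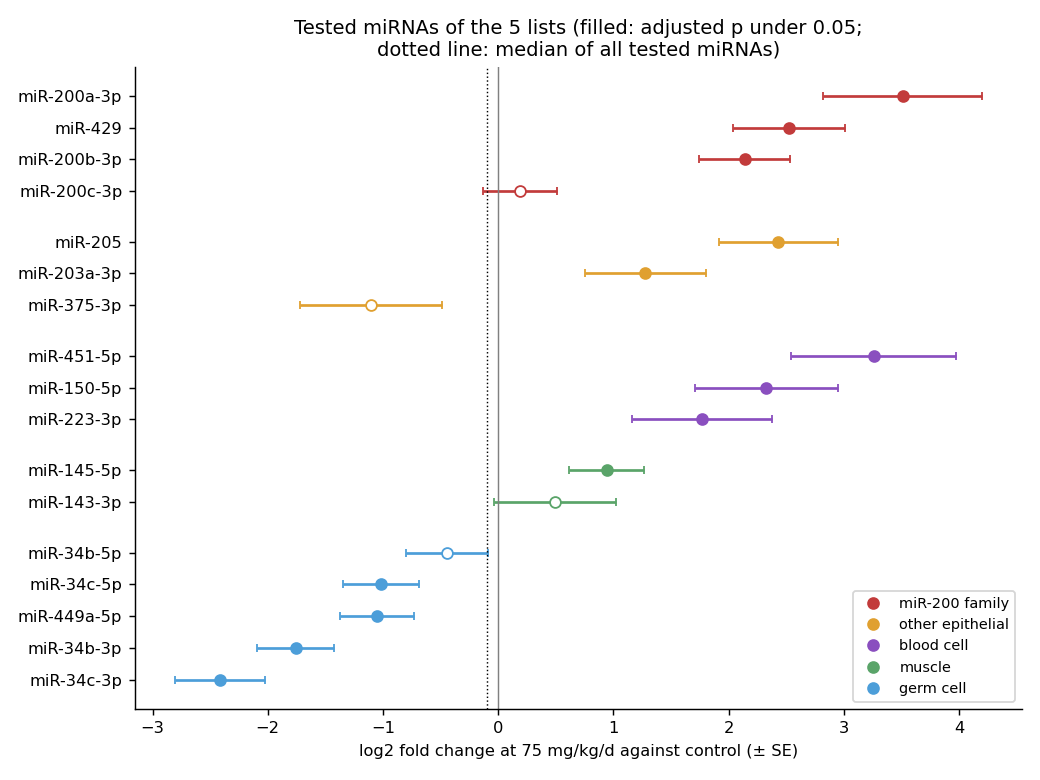
Log2 fold change at 75 mg/kg/d against control (edgeR, ± SE) of the tested miRNAs of 5 lists, filled where the adjusted p was under 0.05; the dotted line is the median of all tested miRNAs (-0.10). miR-200a-3p, miR-429 and miR-200b-3p lie near miR-451-5p, miR-205 and miR-150-5p, and miR-200c-3p lies near the dotted line.

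Across the 39 libraries, rank correlations were higher within the first cluster than between it and miR-200c-3p. Spearman's rho of log2 CPM was 0.74 between miR-200a-3p and miR-200b-3p, 0.66 between miR-200a-3p and miR-429 and 0.58 between miR-200b-3p and miR-429. With miR-200c-3p it was 0.40 for miR-200b-3p, 0.06 for miR-200a-3p and -0.10 for miR-429. After the mean of each dose group was taken off, rho was 0.52, 0.45 and 0.29 within the cluster and 0.47 between miR-200b-3p and miR-200c-3p, the latter within the range of the former. Outside the family, miR-200b-3p was most like miR-221-3p (0.80), miR-451-5p (0.71) and miR-10a-5p (0.71). miR-200a-3p was most like miR-451-5p (0.82), miR-10b-5p (0.75) and miR-22-3p (0.73). For miR-429 the closest were miR-10a-5p (0.68), miR-672-5p (0.60) and miR-221-3p (0.54), and for miR-200c-3p let-7a-5p (0.54), miR-30c-5p (0.36) and miR-28-3p (0.36). The points share library, depth and scaling, and these correlations are descriptions with no test.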

How the data were processed

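The authors deposited 4 tables of raw counts on the sense strand (mature miRNAs, tRNA genes, noncoding transcripts and RNAcentral entries). Per the labels, mirVana extraction with a DNase step was followed by library construction from 10 ng of RNA (Ion total RNA-seq kit v2). The 13 chips carried 3 libraries each, of mixed dose groups. The submitters' processing notes name FastQC, Bowtie and DESeq2 without versions or roles. The treatment of mismatches and multiple matches is not given in the sources used here. The RNAcentral table had 1 row named for a hairpin of the family, with 1 count, and no other row of the miRNA table repeated a member's counts.

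All miRNAs were fitted in 1 model with edgeR 4.0.16 in R 4.3.3 (limma 3.58.1, data.table version 1.17.8): TMM factors (0.674 to 2.21), filterByExpr by group, robust quasi-likelihood tests and Benjamini-Hochberg adjustment over 105 miRNAs (97.1% of the counts), threshold 0.05. log2 CPM used a prior count of 2. Pair ratios were compared by two-sided permutation tests (exact with EGME60, n = 9, otherwise 100000 permutations; 9999 within chips) in numpy 2.4.6, scipy 1.17.1 and pandas 2.3.3; figures used matplotlib 3.10.9. Alternatives included DESeq2 1.42.0. Scripts were tested on simulated data. The members and miRNA lists were chosen with earlier results of these data known. Other tested miRNAs were named by list (at most 4, by fold change at EGME75) or as the 3 most alike. Some listed miRNAs too low to test were named with their reads or mean levels. The p-values set group differences against the spread between libraries, 1 per male. That spread holds counting and library preparation along with differences between males.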

Additional observations from a re-analysis of the deposited data

Results flagged for a closer look

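Samples far from the rest of their group were looked for in 44 sets of values, and 17 were found. The rule used has a nominal chance rate of about 1 in 20 sets, and values at or near 0 counts need not follow it. Several libraries came up more than once.

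Of the controls, EGME0 replicate 33, which held 1098 miRNA counts, stood at 3627 CPM for miR-429 (next 1057), at a log2 ratio of 0.85 for both miR-200b-3p and miR-429 over miR-200c-3p (next -1.45 and -2.57) and at 1.77 for the cluster ratio (next -1.01). EGME0 replicate 1 was the 1 control with miR-141-3p, at 99.5 CPM.

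In EGME50, replicate 35 stood at 3831 CPM for miR-200a-3p (next 1486) and at 483 CPM for miR-141-3p (next 51.2). The same library was also the highest of EGME50 for miR-429, at 3728 CPM. The miR-200a and miR-141 sequences are nearly alike, and the part of this in the values was not tested. Replicate 36 stood at 17660 CPM (1.766e+04) for miR-200c-3p and at -4.75 for miR-429 over miR-200b-3p, with miR-429 listed at 0 among 1681 miRNA counts.

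In EGME60, replicate 13 was lowest for miR-200a-3p over miR-200c-3p, at -5.15, and for the cluster ratio, at -1.40 (next 0.092). Replicate 6, with 1990 miRNA counts and miR-200b-3p listed at 0, stood at 2.81 for miR-429 over miR-200b-3p.

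In EGME75, replicate 39, the deepest library of its group with 8633 miRNA counts, stood at 7690 CPM (7689.6) for miR-200a-3p (next 2991). Replicate 31, where miR-200a-3p was listed at 0, stood at -6.48 for miR-200a-3p over miR-200c-3p and at -6.27 for miR-200a-3p over miR-200b-3p. Replicate 24, the shallowest library with 139 miRNA counts, stood at -2.32 for miR-200b-3p over miR-200c-3p and at 2.81 for miR-429 over miR-200b-3p.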

How the results depend on the processing

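Beside those named above, the calls of the members at EGME60, EGME75 and on the slope were lost only with the sum of the 4 tables as library size, among the settings run: it gave 0, 0, 1 and 1 called members at EGME50, EGME60, EGME75 and on the slope. At EGME50, 0 members were called with RLE factors, limma-voom or the chip block and 1 with only control and that dose in the fit. Leaving out single libraries gave 0 to 2 members at EGME50 and 3 to 3 in the other 3 comparisons with control. For miR-200c-3p the sign turned at EGME50 with DESeq2 (-0.0035) and without libraries under 5000 counts (-0.0103), at EGME60 with library totals (0.29), with control and that dose alone (0.017) and over single libraries left out (-0.16 to 0.065; EGME0 replicate 17 or EGME60 replicate 5, 6 or 38). With the sum of the 4 tables it turned at EGME75 (-0.69) and on the slope (-0.40). On that scale the step to EGME60 turned for miR-200b-3p (-0.090), miR-200a-3p (-0.56) and miR-429 (-0.076), and the step to EGME75 for miR-200b-3p (-0.35) and miR-200c-3p (-0.62). The causes were not tested.

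Among the pair ratios, a pseudocount of 0.1 left miR-200b-3p over miR-200c-3p at 1.17 (EGME60) and 1.46 (EGME75), neither past the threshold, and turned miR-429 over miR-200c-3p at EGME50 to -0.085. Pooled counts gave 2.45, 1.38 and 1.31 at EGME50 for miR-200a-3p, miR-200b-3p and miR-429 over miR-200c-3p, and libraries of at least 5000 counts 2.34, 1.25 and 0.96. Over single libraries left out, miR-200b-3p over miR-200c-3p ran from 0.74 to 1.18 at EGME50 and from 1.26 to 1.70 at EGME60, and miR-429 over miR-200c-3p from -0.070 to 0.59 (turning without EGME50 replicate 35) and from 1.51 to 2.21. miR-200a-3p over miR-200b-3p ran from 1.44 to 1.95 at EGME60 and from 1.55 to 2.26 at EGME75. miR-429 over miR-200b-3p at EGME60 turned to -0.15 with pooled counts and -0.10 with at least 5 reads in the pair, and ran from -0.10 to 0.56 over single libraries, turning without EGME60 replicate 6. The EGME75 difference in log2 CPM of the miR-200b/miR-200a/miR-429 cluster was 2.97 with library totals and 0.98 with the sum of the 4 tables, and that of the miR-200c/miR-141 cluster -1.10 with the latter. No paired analysis was possible because each replicate number occurred in 1 dose group only, and the chip was used as the block instead. Depth limits miR-200a-3p in controls and miR-141-3p throughout, whose values rest on few reads, and a listed 0 may stand for a single read.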
